A study of Arabidopsis thaliana with 20 samples.

Results

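AT2G28390, PEX4 and AT4G26410 are 3 Arabidopsis genes that are used as reference genes, that is, as transcripts assumed to stay level when the levels of other transcripts are compared. They were taken by symbol from the platform's probe table, which gives 1 probe set for each, so they are 3 of 13355 named genes and 3 of the 6961 genes tested. All 3 lay at or above the median intensity of the whole table on 20 of 20 arrays. The study grew T87 cells, a suspension line of the Columbia ecotype (Col-0), and moved them to 4 °C under dim light of 40 µmol per square metre and second for 6, 12, 24 or 36 h, or held them at 22 °C under constant light of 80 µmol. Cordycepin, a nucleoside drug that blocks transcription by stopping RNA chains from growing, was then added, and Affymetrix ATH1 arrays measured total RNA at 0, 4, 8 and 12 h in each set of cold cells and at 0, 0.5, 2 and 4 h in the 22 °C cells. Each of the 20 combinations of temperature, cold duration and cordycepin time has 1 array, so no condition has replicates, all arrays come from 1 cell line, and cold and dim light cannot be told apart.

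A reference gene is useful only where its transcript keeps a constant share of the RNA. After a transcription block that share depends on how fast the transcript is lost relative to all others: a transcript lost more slowly than most gains share, and one lost faster loses share. AT2G28390 encodes MON1 (MONENSIN SENSITIVITY1), which works with CCZ1 in the exchange factor complex that activates RAB7-type GTPases during traffic from late endosomes to the vacuole. PEX4, also named UBC21, is a ubiquitin-conjugating enzyme of peroxisomes that helps to recycle the import receptor of matrix proteins. AT4G26410 carries no name beyond its locus in the annotation used here.

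In TAIR10.1, AT2G28390 lies on chromosome 2 (12139578 to 12143665), PEX4 (AT5G25760) on chromosome 5 (8967655 to 8969369) and AT4G26410 on chromosome 4 (13346654 to 13349142), and all 3 are protein-coding. Averaged over the 20 arrays, the probe sets of AT4G26410 and PEX4 were brighter than 89.6% and 89.4% of all 22810 probe sets, and that of AT2G28390 was brighter than 70.7%. Only 1 of 20 arrays put AT2G28390 in the upper quartile of the table, where the other two stood on all 20.

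The arrays of the 22 °C course changed in their whole distribution once cordycepin was present. On the 16 cold arrays the array median lay between 60.02 and 68.6, and it was lower at 12 h than at 0 h in each course. It went from 64.2 to 60.2 in the 6 h course and from 68.6 to 60.6 in the 12 h course. In the 24 h course it went from 65.3 to 60.0, and in the 36 h course from 67.0 to 61.6. At 22 °C it was 64.4 at 0 h, 55.4 at 0.5 h, 50.8 at 2 h and 50.3 at 4 h, and the lower quartile was 14.9, 16.7, 18.4 and 18.8 at those times. Of 15 listed markers of differentiated cell types, which a suspension culture should lack, the platform table names 2, the root hair gene EXPA7 and the guard cell gene FMA. Their highest intensities were 22.2 and 18.3, below the table median of 61.4, and both highest values were on 22 °C arrays with cordycepin.

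**Figure D1:**
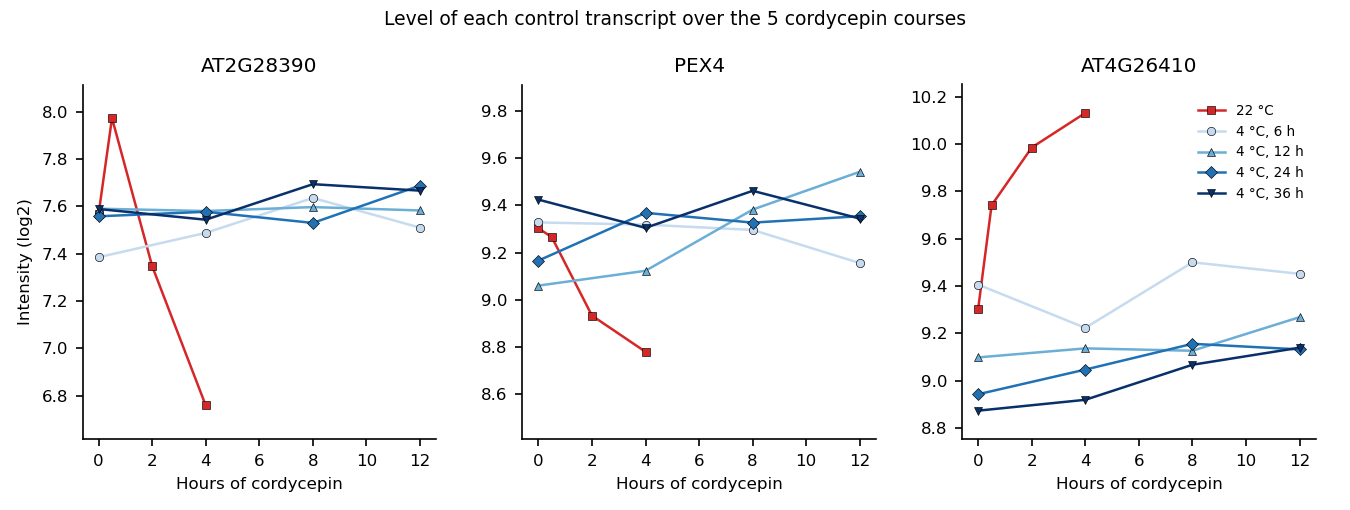
Log2 intensity of AT2G28390, PEX4 and AT4G26410 against hours of cordycepin, with 1 point per array and 1 line per course. The 3 panels have axes of equal length. The 22 °C course (red squares) leaves its own starting level in every panel, down for AT2G28390 and PEX4 and up for AT4G26410, and the 4 cold courses (blue) stay within a range of 0.31, 0.48 and 0.63 log2 units for the 3 genes.

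The first question was how steady the 3 transcripts were over cold before any cordycepin. None was called different between the cold arrays and the 22 °C array. AT2G28390 differed by no more than 0.18 log2 units from 22 °C at any cold duration, and PEX4 by no more than 0.24. AT4G26410 was lower at each longer duration in the cold, and was 0.43 log2 units below its 22 °C level after 36 h.

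AT2G28390 had log2 intensities of 7.39, 7.59, 7.56 and 7.59 after 6, 12, 24 and 36 h of cold, against 7.57 at 22 °C. The 6 h array was the low one, and the 12, 24 and 36 h arrays differed from the 22 °C array by 0.02, −0.01 and 0.02. The mean cold difference was −0.04 ± 0.20 (SE; limma adjusted p = 0.948), with a 95% interval of −0.53 to 0.45.

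PEX4 had 9.33, 9.06, 9.17 and 9.42 after 6, 12, 24 and 36 h of cold, against 9.30 at 22 °C. Its cold values lay on both sides of the 22 °C value, lowest at 12 h and highest at 36 h. The mean cold difference was −0.06 ± 0.21 (limma adjusted p = 0.920), with a 95% interval of −0.57 to 0.45.

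AT4G26410 had 9.41, 9.10, 8.94 and 8.87 after 6, 12, 24 and 36 h of cold, against 9.30 at 22 °C. The 6 h array stood above 22 °C and the other three below it, at 0.867, 0.778 and 0.742 of the 22 °C intensity. The mean cold difference was −0.22 ± 0.25 (limma adjusted p = 0.738), with a 95% interval of −0.84 to 0.39.

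This test called 0.101% of the 6961 genes, so 0 of 3 members called (also 0 at an unadjusted p under 0.05, the smallest being 0.405) says little about them. A p that misses the threshold does not show an equal level. The error behind the wide intervals is the spread among cold durations, which limma draws toward the spread of other genes. Without the 6 h array the AT2G28390 difference became 0.01, without the 12 h array that of PEX4 became 0.0031, and with the intercepts of the lines fitted to all 20 arrays AT2G28390 (−0.30 ± 0.11, adjusted p = 0.0341) and AT4G26410 (−0.44 ± 0.10, adjusted p = 0.00126) passed. Those intercepts put the 22 °C starting level of AT2G28390 at 7.83 and that of AT4G26410 at 9.50, above the measured 7.57 and 9.30.

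Set beside all genes tested, the single-array differences of AT2G28390 were small from 12 h on. At 12, 24 and 36 h of cold only 3.84%, 1.47% and 3.59% of genes were closer to their 22 °C level, and at 6 h 50.7% were. For PEX4 the shares at 6, 12, 24 and 36 h were 7.80%, 39.1%, 18.6% and 21.7%, and for AT4G26410 they were 31.0%, 33.6%, 46.2% and 62.5%. By 36 h of cold AT4G26410 therefore had moved more than most genes, whose median absolute difference was 0.32.

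**Figure D2:**
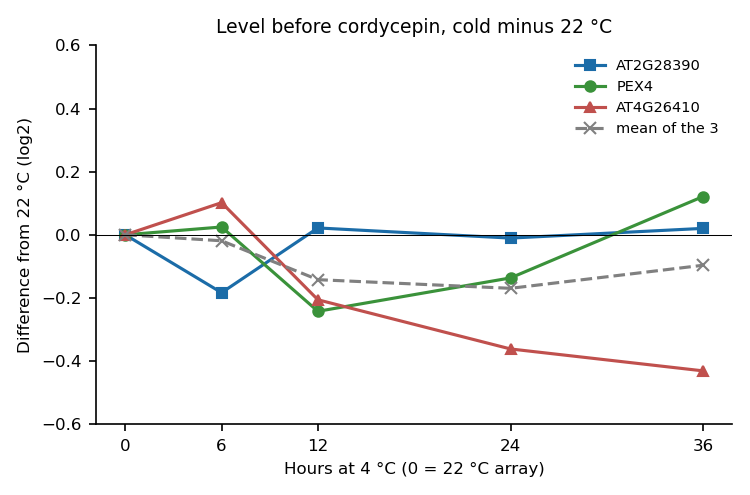
Difference of log2 intensity from the 22 °C array, before cordycepin, against hours at 4 °C, with 1 array per point. AT2G28390 returns to the 22 °C level from 12 h on, PEX4 lies on both sides of it, and AT4G26410 is lower at each longer cold duration, down to −0.43 at 36 h. The dashed line is the mean of the 3 genes.

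The second question was how steady the transcripts were over cordycepin at 22 °C. AT2G28390 and PEX4 fell and AT4G26410 rose, each measured against the rest of its array. All 3 slopes passed the test, whose error was pooled over the lines of all courses, cold ones included. For AT2G28390 the residuals from the line were −0.26 and 0.28 at 0 and 0.5 h at 22 °C. They were −0.0075 to 0.0097 in the 12 h cold course. With arrays up to 4 h only the 22 °C course was left to give an error, with few residual degrees of freedom. The 3 slopes were then the same and did not pass (limma adjusted p = 0.0549 for AT2G28390, 0.0911 for PEX4 and 0.0705 for AT4G26410). Passing is no mark of these genes, since 62.1% of the 6961 genes were called at 22 °C, 38.5% falling and 23.6% rising. The split depends on the scaling: 2681 genes fell and 1641 rose on the deposited scale, against 1810 and 2315 after array-median centring.

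AT2G28390 had log2 intensities of 7.57, 7.97, 7.35 and 6.76 at 0, 0.5, 2 and 4 h of cordycepin at 22 °C. The 0.5 h array was the highest of all 20 arrays for this gene and the 4 h array the lowest. Its slope was −0.25 ± 0.04 log2 units per h (SE; limma adjusted p = 2.00e-04), with a 95% interval of −0.35 to −0.16. A straight line followed this course poorly: the 0 h array lay 0.26 below the line and the 0.5 h array 0.28 above it, against a residual SD of 0.13 about all the lines. At 4 h the intensity was 0.570 of that at 0 h, and 19.6% of genes had a more negative slope.

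PEX4 had 9.30, 9.27, 8.93 and 8.78 at 0, 0.5, 2 and 4 h. It was lower at each later time, with little difference at 0.5 h, and its 4 h value was the lowest of the 20 arrays. The slope was −0.14 ± 0.03 (limma adjusted p = 6.75e-04; 95% interval −0.20 to −0.08). At 4 h the intensity was 0.696 of that at 0 h, and 35.9% of genes had a more negative slope.

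AT4G26410 had 9.30, 9.74, 9.99 and 10.13 at 0, 0.5, 2 and 4 h. It was higher at each later time, with a gain over 0 h of 0.44 log2 units at 0.5 h and 0.83 log2 units at 4 h. Its slope was 0.18 ± 0.04 (limma adjusted p = 8.16e-04; 95% interval 0.10 to 0.26), and 86.9% of genes had a lower slope. At 4 h the intensity was 1.78 times that at 0 h.

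The direction of AT4G26410 depends on the zero point. With the 95th percentile slope of the course set to zero decay it had −0.098 (adjusted p = 0.0218), so it can be said to have risen only relative to the other transcripts measured. The slope of AT4G26410 was 0.11 without the 0 h array and 0.30 without the 4 h array, that of AT2G28390 was −0.18 and did not pass without the 4 h array (adjusted p = 0.100), and that of PEX4 was −0.063 and did not pass with each array centred on its median (adjusted p = 0.124). After quantile normalisation the AT2G28390 slope was −0.13 (adjusted p = 0.0138). In a comparison added after values were seen, the 4 h change of AT4G26410 lay between 0.66 and 1.18 over the deposited scale, both centrings and quantile normalisation, that of AT2G28390 between −0.94 and −0.34 and that of PEX4 between −0.65 and −0.17, while the median of all genes lay between −0.33 and 0.15.

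Over the 4 cold courses the 3 transcripts mostly stayed near their starting levels, and of 12 slopes, 1 for each gene and course, 1 passed. This was PEX4 in the course begun after 12 h of cold, which had 9.06, 9.12, 9.38 and 9.54 at 0, 4, 8 and 12 h and rose by 0.043 ± 0.010 log2 units per h (limma adjusted p = 0.0127). In that course 18.5% of genes were called, 11.3% rising and 7.24% falling. The PEX4 slope did not pass without the 0 h array (0.052, adjusted p = 0.402) or without the 12 h array (0.040, adjusted p = 0.182). With the 95th percentile slope of each course set to zero, all 12 slopes were negative and 6 passed, among them PEX4 in the 6 h course (−0.073, adjusted p = 4.19e-05), and PEX4 in the 12 h course had −0.013 and did not pass (adjusted p = 0.237).

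In the courses begun after 6, 24 and 36 h of cold, PEX4 had slopes of −0.013, 0.013 and −0.0021 ± 0.010 each, and none passed. In those courses 8.16%, 1.22% and 0.259% of genes were called. The test of any difference among the 4 cold slopes, which called 2.77% of genes, gave PEX4 an adjusted p of 0.0851 in limma, and 0.0428 without the 22 °C 0 h array. For AT2G28390 it gave 0.992 and for AT4G26410 0.975.

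AT2G28390 was nearly flat in the cold. Its 4 arrays of the 12 h course read 7.59, 7.58, 7.60 and 7.58 at 0, 4, 8 and 12 h of cordycepin, a range of 0.02. In the 6 h course it read 7.39, 7.49, 7.64 and 7.51, in the 24 h course 7.56, 7.58, 7.53 and 7.69, and in the 36 h course 7.59, 7.54, 7.69 and 7.67. The lowest of these 16 values was the first array of the 6 h course. Slopes lay between −1.44e-04 and 0.013, each with an SE of 0.015.

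AT4G26410 read 9.41, 9.22, 9.50 and 9.45 in the 6 h course and 9.10, 9.14, 9.13 and 9.27 in the 12 h course. It read 8.94, 9.05, 9.16 and 9.13 in the 24 h course and 8.87, 8.92, 9.07 and 9.14 in the 36 h course. The courses differed more in where they began than in how they ran, and the 6 h course overlapped the others only at its 4 h array. The 4 slopes of AT4G26410 were all positive, between 0.010 and 0.024 with an SE of 0.013 each, and none passed. That SE is pooled over the lines of all courses, including the 22 °C course. The residuals of AT4G26410 from the line were −0.20 and 0.15 at 0 and 0.5 h at 22 °C. They lay between −0.033 and 0.020 in the 36 h course, while the 4 h array of the 6 h course had −0.15. A slope that did not pass therefore does not show a steady level in its course. The mean cold slope was 0.016 ± 0.0064 for AT4G26410 (limma adjusted p = 0.0625), 0.010 ± 0.0048 for PEX4 (0.111) and 0.0078 ± 0.0076 for AT2G28390 (0.426), where 37.8% of genes were called, 1129 falling and 1502 rising (811 and 2750 after array-median centring). With that centring the mean cold slopes of PEX4 (0.021) and AT4G26410 (0.027) passed too, and that of AT4G26410 passed without the 22 °C 0, 0.5 or 4 h array, with adjusted p of 0.0124, 0.0435 and 0.0363. With the 95th percentile slope of each course set to zero the mean cold slopes were −0.040 for AT2G28390, −0.037 for PEX4 and −0.032 for AT4G26410, and all 3 passed as negative (adjusted p = 2.00e-04, 7.57e-06 and 3.23e-04).

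The difference between the cold and 22 °C slopes was tested directly and passed for all 3 genes, as it did for 58.5% of genes, 37.0% with a higher and 21.5% with a lower slope in the cold. That split also depends on the scaling: 2577 genes had a higher and 1495 a lower slope on the deposited scale, against 1820 and 2080 after array-median centring. AT2G28390 had a mean slope of 0.0078 in the cold against −0.25 at 22 °C, a difference of 0.26 ± 0.04 log2 units per h (limma adjusted p = 2.03e-04). PEX4 had 0.010 in the cold against −0.14 at 22 °C, a difference of 0.15 ± 0.03 (adjusted p = 4.99e-04). AT4G26410 had 0.016 in the cold against 0.18 at 22 °C, a difference of −0.16 ± 0.04 (adjusted p = 0.00196). With each array centred on its median the PEX4 difference was 0.084 (adjusted p = 0.04999), and after quantile normalisation the AT2G28390 difference was 0.14 (adjusted p = 0.0105). Each of the 4 cold courses also differed from 22 °C for each gene, with limma adjusted p between 1.57e-04 and 0.00377, where 56.9%, 57.6%, 56.4% and 56.4% of all genes passed in the 6, 12, 24 and 36 h courses. These comparisons share the same 22 °C slope and the same pooled error, so they are not independent of each other.

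The cold courses ran for 12 h and the 22 °C course for 4 h, but the contrast was also there over the same 4 h. AT2G28390 changed by 0.10, −0.0098, 0.02 and −0.05 in the 6, 12, 24 and 36 h cold courses, against −0.81 at 22 °C. PEX4 changed by −0.0093, 0.06, 0.20 and −0.12 in those courses, against −0.52 at 22 °C, and AT4G26410 by −0.18, 0.04, 0.10 and 0.05, against 0.83 at 22 °C. Each 22 °C change was larger than any cold change of the same gene. A fit to the arrays up to 4 h alone gave differences of 0.26, 0.15 and −0.18 for AT2G28390, PEX4 and AT4G26410 that did not pass (adjusted p = 0.0889, 0.129 and 0.117), with only the 22 °C course left to give an error. The AT4G26410 difference was −0.28 without the 22 °C 4 h array and −0.094 without the 22 °C 0 h array, that of AT2G28390 was 0.19 without the 4 h array and did not pass (adjusted p = 0.0911), and that of AT4G26410 turned to 0.066 with the 95th percentile slope of each course as zero.

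How far each transcript wandered was summed up as the standard deviation (SD) of its log2 intensity. Over the 16 cold arrays AT2G28390 had an SD of 0.08, and 0.675% of the 6961 genes had a smaller one, so it ranked 48th. With each array centred on 5 other reference genes its SD there was 0.13, but AT5G15710, among those 5, itself had an SD of 0.49 there. PEX4 had 0.13, with 12.5% of genes smaller, and AT4G26410 had 0.18, with 37.8% smaller. The median over all genes was 0.21.

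Over the 4 arrays at 22 °C the order was another. PEX4 had the lowest SD of the 3, 0.25, with 33.9% of genes below it, AT4G26410 had 0.36, with 52.3% below it, and AT2G28390 had 0.51, with 71.3% below it. The median over all genes was 0.35. The transcript that was steadiest of the 3 in the cold thus had the widest spread at 22 °C, and both sets of arrays include cordycepin.

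Over all 20 arrays PEX4 had the lowest SD of the 3, 0.18, ahead of AT2G28390 with 0.22 and AT4G26410 with 0.34. Their values ran over 1.70-fold, 2.32-fold and 2.39-fold, and 10.9%, 21.5% and 50.6% of genes had a smaller SD. The 2 extremes of AT2G28390 and the highest value of AT4G26410 were 22 °C arrays with cordycepin. Leaving out the 22 °C 4 h array brought AT2G28390 to 0.129. The lowest SD that leaving out any 1 array gave PEX4 was 0.145, so the order of AT2G28390 and PEX4 rests on the 22 °C 4 h array. Over the 5 arrays without cordycepin the SDs were 0.09 for AT2G28390, 0.14 for PEX4 and 0.23 for AT4G26410.

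**Figure D3:**
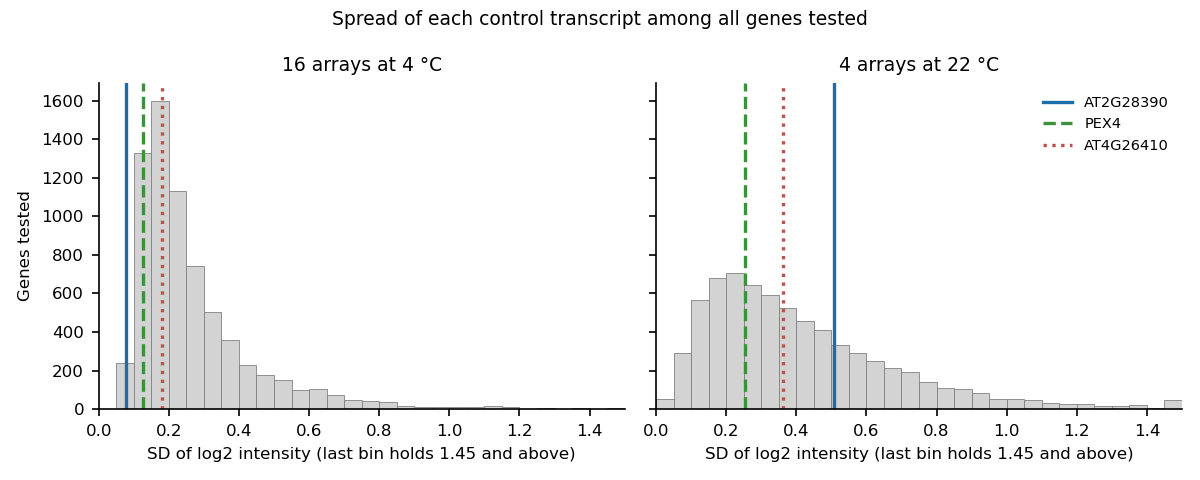
SD of log2 intensity for all 6961 genes tested (grey bars, genes per bin of 0.05) over the 16 cold arrays on the left and the 4 arrays at 22 °C on the right, with the 3 control transcripts as vertical lines. AT2G28390 is the lowest of the 3 on the left (0.08) and the highest on the right (0.51).

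Because the deposited values are scaled between arrays, the 3 transcripts were also set against each other on the same array, where any factor common to an array cancels. Only the change of such a difference from the 22 °C array without cordycepin is given, since levels of different probe sets cannot be compared. Over the 16 cold arrays AT4G26410 minus AT2G28390 lay between −0.45 and 0.29, AT4G26410 minus PEX4 between −0.55 and 0.29, and AT2G28390 minus PEX4 between −0.22 and 0.26. On all 8 arrays after 24 or 36 h of cold, AT4G26410 was lower relative to each of the other two than on the 22 °C array. The SDs of the 3 differences were 0.22, 0.23 and 0.13 over the 16 cold arrays, and 0.78, 0.60 and 0.30 over the 4 arrays at 22 °C.

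At 22 °C the differences moved further from that array. The difference AT4G26410 minus AT2G28390 had changed by 0.03, 0.90 and 1.64 log2 units at 0.5, 2 and 4 h of cordycepin at 22 °C, the last a 3.11-fold shift between 2 transcripts used for the same purpose. AT4G26410 minus PEX4 had changed by 0.47, 1.05 and 1.35 at those times, a 2.55-fold shift at 4 h. AT2G28390 minus PEX4 had changed by 0.44, 0.15 and −0.29, so this pair first parted one way and then the other. A factor common to an array cannot alter these values, but a scaling that depends on intensity can: after quantile normalisation the 4 h change at 22 °C was 1.00 for AT4G26410 minus AT2G28390 in place of 1.64, 1.19 for AT4G26410 minus PEX4, and 0.19 for AT2G28390 minus PEX4, which turned its sign.

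**Figure D4:**
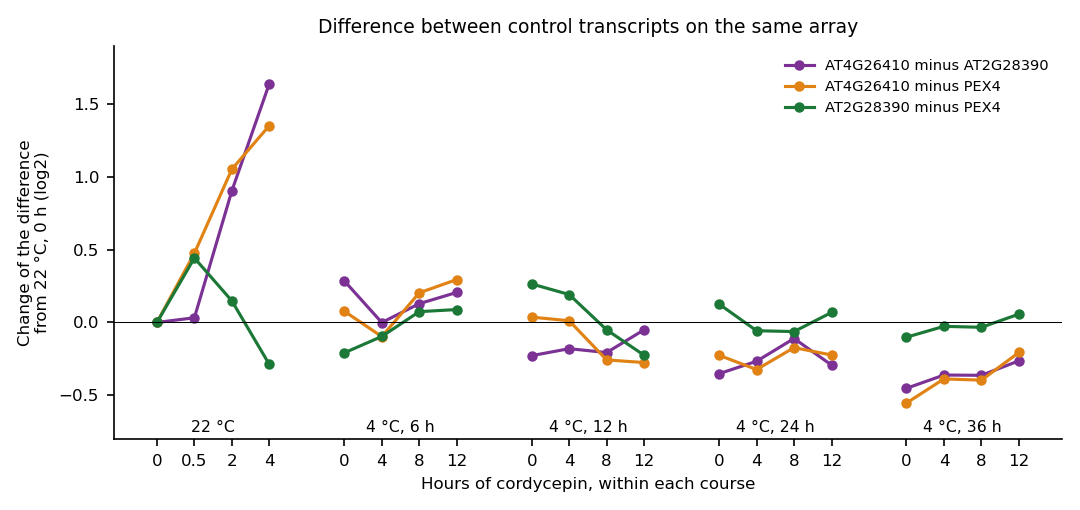
Change of the log2 difference between 2 control transcripts on the same array, relative to the 22 °C array without cordycepin, for all 20 arrays in their 5 courses. Both differences with AT4G26410 are above 1.3 at 4 h at 22 °C, and no cold array lies outside −0.55 to 0.29.

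The mean of the 3 log2 values moved less than any member over the 20 arrays, with an SD of 0.10 and a range of 0.44. Averaging transcripts that move in opposite directions lowers the spread by itself, so this does not show that the mean is a steadier control. At 22 °C it read 8.73, 8.99, 8.76 and 8.56 at 0, 0.5, 2 and 4 h of cordycepin. The 0.5 h array was the highest of all 20, and both AT2G28390 and AT4G26410 were above their 0 h level there. At 4 h the change of the mean was −0.17, with 2 members lower and 1 higher. In the cold it lay between 8.56 and 8.81.

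What the choice of control does to the rest of the table was counted for 4 h over 0 h of cordycepin at 22 °C, 1 array against 1 and with no test. This description was chosen after values were seen. As deposited, 561 of 6961 genes were higher at 4 h by a factor of 2 or more and 1509 were lower by that factor. Divided by AT2G28390, 2375 were higher and 388 lower, and divided by PEX4, 1610 were higher and 673 lower. Divided by AT4G26410, 82 were higher and 3568 lower, which is 51.3% of the genes. Divided by the mean of the 3, 822 were higher and 1190 lower. With each array centred on its median in place of a control, 1201 were higher and 902 lower. After quantile normalisation with no divisor, 812 were higher and 1015 lower. Without the filter on low values the table holds 13355 genes, and 6141 were higher with AT2G28390, 3435 with PEX4 and 1379 with the mean of the 3. The genes this adds reached the table median on fewer than 2 arrays. The lower quartile of the whole array was itself 14.9 at 0 h and 18.8 at 4 h. After quantile normalisation the counts of higher and lower genes were 1468 and 619 with AT2G28390, 2004 and 489 with PEX4, and 216 and 2377 with AT4G26410.

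**Figure D5:**
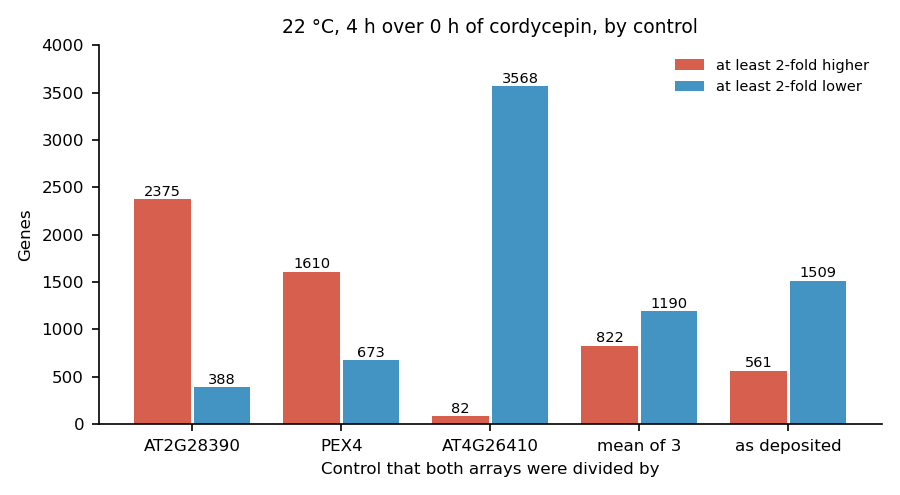
Number of genes at least 2-fold higher (red) or lower (blue) at 4 h than at 0 h of cordycepin at 22 °C, after both arrays were divided by 1 control transcript or by the mean of 3 (on the log2 scale), and as deposited. The higher bars outnumber the lower with AT2G28390 and PEX4 and fall far below them with AT4G26410.

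The same count for cold before cordycepin shifted less. After 36 h at 4 °C against 22 °C, 484 genes were higher by that factor and 209 lower as deposited. The counts were 470 and 221 when divided by AT2G28390, 415 and 320 by PEX4, and 947 and 52 by AT4G26410. For 12 h over 0 h of cordycepin in the course begun after 12 h of cold, 81 were higher and 430 lower as deposited, and 18 and 1074 when divided by PEX4, the member that rose there. With array-median centring in place of a divisor, 183 were higher and 310 lower.

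Other genes proposed as steady references were measured beside these. Of 18 listed, the platform table names 10 and 5 passed the filter on low values, and of 14 traditional controls it names 2, GAPC2, a glycolytic dehydrogenase, and TUB6, a beta-tubulin, both past the filter. Over the 20 arrays AT5G46630, the mu subunit of adaptor complex AP-2, had an SD of 0.14, AT4G34270 0.17, AT4G33380 0.19, AT2G32170 0.40 and AT5G15710 0.52. GAPC2 had 0.13 and TUB6 0.25. By SD over the 20 arrays PEX4 came 4th, AT2G28390 6th and AT4G26410 8th of these 10 transcripts, and over the 16 cold arrays AT2G28390 came 2nd, PEX4 5th and AT4G26410 9th.

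The mean SD of a transcript's difference from each of the other 9 needs no scaling of the arrays. This measure was also added after values were seen. It was 0.35 for AT4G26410, 0.35 for PEX4 and 0.37 for AT2G28390 over the 20 arrays, places 6, 7 and 8 of 10, and AT4G33380 had the lowest, 0.27. Over the 16 cold arrays it was 0.22, 0.22 and 0.20, and AT2G28390 came 5th. The order depends on which transcripts are in the set.

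Of the 5 other references, 1 rose and 1 fell under cordycepin at 22 °C, where 23.6% of all genes rose and 38.5% fell, so their counts do not stand out from the background: AT2G32170 had a slope of 0.15 ± 0.04 (limma adjusted p = 0.0031) and AT5G46630 −0.14 ± 0.03 (adjusted p = 0.00218). The remaining 3, and both traditional controls, did not pass. The median slope of the 5 was 0.060, against −0.052 over all genes tested. Before cordycepin 0 of the 5 were called between cold and 22 °C in limma, with adjusted p between 0.567 and 0.866, where 0.101% of all genes were called, so this count says little about them. AT2G32170 had −0.13 with the 95th percentile slope as zero.

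For AT2G28390 the genes of its own pathway could be read. Of 25 listed genes of traffic to the vacuole the platform table names 5, all 5 past the filter. Both genes of its partner, AT1G16020 (CCZ1a) and AT1G80910 (CCZ1b), fell at 22 °C, and ARA6, a RAB5-type GTPase of endosomes, rose, so 2 of 5 fell, 1 rose and 2 did not pass. Over all genes 38.5% fell and 23.6% rose, so these shares of 5 genes are near the background. The median slope of the 5 was −0.085, against −0.052 over all genes. CCZ1a had 7.08, 6.90, 6.59 and 6.35 at 0, 0.5, 2 and 4 h, a slope of −0.18 ± 0.04 (limma adjusted p = 0.00121). CCZ1b had 7.66, 7.85, 7.56 and 7.18, a slope of −0.14 ± 0.04 (adjusted p = 0.00431), and like AT2G28390 it was highest at 0.5 h. ARA6 had 9.57, 9.90, 10.13 and 10.08, a slope of 0.11 ± 0.04 (adjusted p = 0.0192), and −0.17 with the 95th percentile slope as zero.

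In the cold the slopes of CCZ1a and CCZ1b differed from 22 °C by 0.19 ± 0.04 and 0.16 ± 0.04 (limma adjusted p = 8.69e-04 and 0.00298). AT2G28390 also had a higher slope in the cold, as did 37.0% of all genes in this test. CCZ1a and CCZ1b were the only 2 of the 5 listed genes tested that passed. ARA6 had −0.090 (adjusted p = 0.0501) and AT1G22860 −0.095 (adjusted p = 0.0691), the other way, and AT1G12470 had 0.073 (adjusted p = 0.224). Of the 21 listed peroxins, the partners of PEX4, and of 11 listed genes of G-protein and sugar sensing the platform table names 0, so none is read here.

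The genes whose course over the 20 arrays was most like each control were found by Pearson's r. The r describes these arrays, which share 5 courses and 1 scaling. For AT4G26410 the nearest were AT1G56190 (r = 0.989), AT1G18720 (0.983) and AT5G43830 (0.980), which were higher by 0.99, 0.88 and 0.89 log2 units at 4 h than at 0 h of cordycepin at 22 °C. Over the 16 cold arrays alone the r of these 3 was 0.963, 0.949 and 0.930, and 579 genes had an r above 0.9 with AT4G26410 over all 20.

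AT2G28390 and PEX4 had few such companions. For AT2G28390 the nearest were AN (ANGUSTIFOLIA, which acts in leaf and cell shape; r = 0.913), AT4G16650 (0.907) and AT3G13510 (0.895), and 2 genes were above 0.9. Over the 16 cold arrays their r was 0.313, 0.626 and 0.223. For PEX4 the nearest were AT3G02220 (0.929), AT3G15080 (0.914) and AT5G15750 (0.908), with 6 genes above 0.9 and an r of 0.858, 0.824 and 0.791 over the cold arrays. Among the 3 controls themselves r over the 20 arrays was 0.655 for AT2G28390 and PEX4, −0.510 for AT4G26410 and AT2G28390, and −0.653 for AT4G26410 and PEX4.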

How the data were processed

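Total RNA of T87 cells was measured on 20 arrays, 1 per condition. The deposited intensity values are probe set summaries that the authors made with RMA in the affy package, per the submitters' processing notes (versions not given in the sources used here). Their range is that of a linear scale, and all computation here used their log2. Of 22810 probe sets, 13513 (59.2%) have 1 gene symbol, 503 have several and 8794 have none in the platform table; 13436 matched TAIR10.1 by Entrez identifier. Each gene was read from its brightest probe set and tested if it reached the table median of 61.4 on 2 or more arrays.

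All tests are two-sided limma tests (version 3.58.1 in R 4.3.3; lmFit, eBayes with a variance trend), Benjamini-Hochberg adjusted over 6961 genes and called at 0.05. The level test set the mean of the 4 cold arrays before cordycepin against the 22 °C array, giving that single array the spread of the cold ones. The slope test fitted 1 line per course to all 20 arrays, so its error is how far arrays scatter around lines, and the spread between cultures is unknown. The slope fit was tested on simulated data with straight lines and independent normal noise of 1 SD per gene over all courses. That simulation does not cover courses that bend or that scatter unequally, as those of AT2G28390 did. SDs, pair differences, divisors and correlations carry no test. Named genes are the 3 controls, the 3 genes most correlated with each, and up to 4 genes of each list with the lowest and up to 4 with the highest SD over the 20 arrays. The alternatives were no filter and a filter at the upper quartile of the table, array-median centring, quantile normalisation, centring on 5 other reference genes, averaging probe sets within a gene, eBayes without trend, intercepts of the lines, no 0 h arrays, arrays up to 4 h, slopes with the 95th percentile as zero, and each array left out. Members and lists were chosen with earlier results of these data known. Python 3.11.15, numpy 2.4.6, pandas 2.3.3 and matplotlib 3.10.9 made the tables and plots. The number of arrays limits the precision.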

Additional observations from a re-analysis of the deposited data

Results flagged for a closer look

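For all 3 control transcripts the effect of cordycepin time differed between the cold and 22 °C by a test of the difference itself. Averaged over the 4 cold courses, the slope exceeded that at 22 °C by 0.26 log2 units per h for AT2G28390, 0.15 for PEX4 and differed from it by −0.16 for AT4G26410. In each case the 22 °C course moved, and 58.5% of the genes tested passed the same test. The cold slopes lay near 0 except for PEX4 in the 12 h course, which had 0.043 log2 units per h and passed. PEX4 changed by 0.48 log2 units over 12 h there, against −0.52 over 4 h at 22 °C. The array medians also moved with the 22 °C course, and fell by less in the cold courses. With each array centred on its median the differences were 0.20 for AT2G28390, 0.084 for PEX4 and −0.23 for AT4G26410, and all 3 passed (limma adjusted p = 0.00603, 0.04999 and 0.00137).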

How the results depend on the processing

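Of 891 recalculations of the results on the 3 control transcripts, 583 of the 600 that left out an array and 243 of the 291 others kept direction and call (for SDs, a value within 1.5 times). Many of these could hardly change. Leaving out an array of 1 course keeps the slope estimates of the other courses. Averaging probe sets or dropping the filter keeps the values of the 3 genes, which have 1 probe set each. A result that did not pass in either fit also counted as kept. No paired analysis was possible because each condition has 1 array and the labels give no replicate numbers. Where no other reason is given, the cause was not tested.

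With the 95th percentile slope of each course set to zero, slopes turn negative by construction. The 22 °C slope was then −0.098 for AT4G26410, −0.17 for ARA6 and −0.13 for AT2G32170, and the cold minus 22 °C difference was 0.066, 0.14 and 0.098. Mean cold slopes were −0.040 for AT2G28390, −0.037 for PEX4 and −0.032 for AT4G26410, and all 3 passed. In the 6, 12, 24 and 36 h courses AT2G28390 had −0.046, −0.056, −0.027 and −0.029, PEX4 −0.073, −0.013, −0.023 and −0.041, and AT4G26410 −0.049, −0.043, −0.019 and −0.015. The difference among cold slopes of PEX4 had an adjusted p of 0.0400.

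With arrays up to 4 h (2 residual degrees of freedom) the 22 °C slopes of −0.25, −0.14 and 0.18 for AT2G28390, PEX4 and AT4G26410 and the differences of 0.26, 0.15 and −0.18 did not pass. PEX4 then had 0.016 in the 12 h course, AT2G28390 −0.011 in the 36 h course and AT4G26410 −0.046 in the 6 h course. Without the 0 h arrays the AT4G26410 difference was −0.089 and did not pass (adjusted p = 0.0622), PEX4 had 0.052, −0.0018 and 0.0049 in the 12, 24 and 36 h courses, and AT2G28390 had 2.95e-04 in the 12 h course. The line intercepts gave level differences of −0.30 for AT2G28390 and −0.44 for AT4G26410.

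Array-median centring gave a PEX4 slope of −0.063 at 22 °C and 0.0086 in the 36 h course, an AT2G28390 slope of 0.014 in the 12 h course, and mean cold slopes of 0.021 for PEX4 and 0.027 for AT4G26410 that passed. Centring on 5 other reference genes gave mean cold slopes of 0.021 for PEX4 and 0.027 for AT4G26410 that passed, a level difference of 0.01 for AT2G28390, slopes of 0.0061 for AT2G28390 (12 h), 0.0055 for PEX4 (6 h) and 0.0070 for PEX4 (36 h), and an SD of 0.13 for AT2G28390 in the cold. Of those 5 genes, AT5G15710 itself had a mean cold slope of −0.098 (limma adjusted p = 0.00106) and AT4G34270 had 0.020 (adjusted p = 0.0210). Centring without AT5G15710 was not tested. Quantile normalisation gave AT2G28390 a slope of 0.0033 in the 12 h course and an SD of 0.15 over 20 arrays. AT2G28390 did not pass the upper-quartile filter, so no test of it was made there.

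Leaving out each array in turn gave −0.058 to 0.011 for the AT2G28390 level difference, −0.12 to 0.0031 for the PEX4 level difference, −0.34 to −0.18 for the AT2G28390 22 °C slope, −4.92e-04 to 8.56e-04 for the AT2G28390 slope in the 12 h course, 0.040 to 0.052 for the PEX4 slope in the 12 h course. It gave −0.0035 to 0.014 for the AT2G28390 slope in the 24 h course, −0.0018 to 0.020 for the PEX4 slope in the 24 h course, −0.0051 to 0.0049 for the PEX4 slope in the 36 h course, 0.043 to 0.34 for the PEX4 p for a difference among cold slopes. It gave 0.014 to 0.020 for the AT4G26410 mean cold slope, 0.19 to 0.35 for the AT2G28390 cold minus 22 °C slope, 0.13 to 0.23 for the AT2G28390 SD over 20 arrays.

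The main table has 6961 genes, the one without a filter 13355 and the one with the upper-quartile filter 3697. Counts under different filters therefore have different totals and cannot be compared directly. Counts over all genes, against 2681 falling and 1641 rising at 22 °C, were 5952 and 73 with the 95th percentile as zero and 1118 and 494 with arrays up to 4 h, with 3690 rising without a filter and 1315 falling with the upper-quartile filter. For the mean cold slope (1129 and 1502) they were 6464 and 22, 0 and 0 with arrays up to 4 h, and 651 and 2966 with centring on 5 other reference genes, with 2750 rising after array-median centring and 452 falling with the upper-quartile filter. For the cold minus 22 °C slope (1495 lower and 2577 higher) they were 99 and 5544, 177 and 607, and 986 and 1290 with the upper-quartile filter, with 911 lower after centring on 5 other reference genes and 3344 lower without a filter. For the level the 7 higher genes became 0 without a trend, 12 after array-median centring and 16 with the upper-quartile filter. Without the 6 h array they became 77 higher and 9 lower, without the 12 h or the 36 h array 0, and without the 24 h array 14. The intercepts gave 1755 higher and 2596 lower.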
